A study of Homo sapiens with 12 samples.

Results

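Expression of 10 genes of the neuropilin, vascular endothelial growth factor (VEGF), and class 3 semaphorin system was examined in 2 established uterine leiomyosarcoma (uLMS) cell lines. The members were the co-receptors NRP1 and NRP2, the ligands VEGFA, VEGFB, VEGFC, SEMA3A, and SEMA3C, the VEGF receptors KDR and FLT1, and the plexin PLXNA1. They were found by symbol among 60649 rows of gene counts, and each symbol matched 1 row. In all, 9 of the 10 were among the 21114 genes with enough counts to be tested, and KDR was not.

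Bulk RNA sequencing covered 12 libraries. SK-UT-1B, from a primary tumor, had 2 libraries after DMSO (4-1 and 4-2) and 2 after MK-0752, gemcitabine, and docetaxel (the combination, 3-1 and 3-3). SK-LMS-1, from a metastasis, had 4 libraries after DMSO, in which 2-1 and 2-3 are called DMSO set 2 and 4-1 and 4-2 are called DMSO set 4 by the first number of their names. It had 2 libraries after MK-0752 alone (2-2 and 2-3) and 2 after the combination (4-1 and 4-2). In SK-UT-1B no control carries the first number of the combination libraries, so in that line the treatment and the number cannot be told apart. All cells were labelled wild type and were exposed for 72 h, with MK-0752 or the combination at its own IC30 and DMSO at the matching volume. By the doses the study gives, the IC30 of the combination is reached with less of each drug than that drug needs alone, so the SK-LMS-1 libraries given MK-0752 alone and in the combination differ in MK-0752 dose as well as in the added drugs. MK-0752 inhibits gamma secretase, the protease that releases the active part of Notch receptors, while gemcitabine is a nucleoside analog and docetaxel stabilizes microtubules. Nothing in the labels says that replicates came from separate cultures, so p values measure the spread between these libraries, which may be technical.

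VEGFs are secreted growth factors that act through receptor tyrosine kinases, which are known best from endothelial cells. VEGFA binds FLT1 and KDR, VEGFB binds FLT1, and VEGFC binds mainly FLT4 and, once processed, KDR. Neuropilins are membrane proteins with a short cytoplasmic tail that bind some VEGFs beside their kinase receptors and bind class 3 semaphorins beside plexins, which carry the semaphorin signal into the cell. SEMA3A signals mostly through NRP1 and A-type plexins, and SEMA3C can use NRP1 or NRP2.

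Promoters were read from RefSeq (GRCh38.p14) for 7 of the 10 members (all but NRP1, VEGFA, and SEMA3A). The 4 below set 3 genes that were high in SK-LMS-1 and near 0 in SK-UT-1B (NRP2, VEGFC, and SEMA3C) beside PLXNA1, which was abundant in both lines. Each is the gene strand upstream of the RefSeq start, 5′ to 3′, without bases that fall in an exon. For NRP2 and PLXNA1 these windows lie inside the gene coordinates given further below, which begin before the RefSeq start. Capitals mark the GC box GGGCGG or its reverse complement.
NRP2, chr2:205682251-205682499, plus strand: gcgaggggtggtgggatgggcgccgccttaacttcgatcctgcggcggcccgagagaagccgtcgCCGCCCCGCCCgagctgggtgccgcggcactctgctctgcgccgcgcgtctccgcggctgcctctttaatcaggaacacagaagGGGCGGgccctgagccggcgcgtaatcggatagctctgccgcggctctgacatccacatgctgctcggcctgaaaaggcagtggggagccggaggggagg
VEGFC, chr4:176792923-176793172, minus strand: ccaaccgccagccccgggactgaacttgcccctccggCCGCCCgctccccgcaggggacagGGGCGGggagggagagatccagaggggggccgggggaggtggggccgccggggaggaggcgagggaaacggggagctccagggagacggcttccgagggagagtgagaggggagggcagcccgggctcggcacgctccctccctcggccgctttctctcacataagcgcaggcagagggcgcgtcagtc
SEMA3C, first start, chr7:80922390-80922639, minus strand: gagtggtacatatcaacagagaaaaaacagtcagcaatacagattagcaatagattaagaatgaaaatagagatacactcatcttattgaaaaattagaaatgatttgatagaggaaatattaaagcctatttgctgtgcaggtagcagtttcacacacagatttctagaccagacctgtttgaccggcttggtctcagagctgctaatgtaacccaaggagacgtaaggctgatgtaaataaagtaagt
PLXNA1, chr3:126982865-126983114, plus strand: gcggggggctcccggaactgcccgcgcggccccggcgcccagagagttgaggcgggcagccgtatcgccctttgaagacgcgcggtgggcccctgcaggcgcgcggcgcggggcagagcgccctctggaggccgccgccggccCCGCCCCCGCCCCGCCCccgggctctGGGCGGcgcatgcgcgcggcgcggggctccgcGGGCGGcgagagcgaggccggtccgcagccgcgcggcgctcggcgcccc

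Over both strands, with overlapping matches counted, the 250 bases upstream of the start held 3 GC boxes in NRP2, 2 in VEGFC, and 5 in PLXNA1. SEMA3C had 0 at its first annotated start and 3 at its second. Of 35116 promoter windows of the same length, 42.6% held this motif. GC content was 70.0% in NRP2, 74.0% in VEGFC, and 84.4% in PLXNA1, and for SEMA3C it was 36.4% at the first start and 77.6% at the second. The hypoxia response core, searched as ACGTG on both strands, was in none of the 7 matched members' windows and in 18.5% of all windows. The AP-1 motif, searched as TGANTCA, was in none of them and in 6.6% of all windows. The TATA box, searched as TATAAA, was found in FLT1 alone among the 7, against 10.7% of all windows. These matches are descriptions of the letters and show no binding.

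Each library held 25250057 to 40709885 reads assigned to genes. Levels are given as CPM, which are counts scaled to the normalized library size, and levels of different genes are compared as CPM per kb of exon. The exon length of a gene merges its annotated exons, so orders and shares of different genes depend on this length. In each library, 17.1% to 34.4% of genes whose expected count lay between 5 and 500, by the remaining libraries of that line, had 0 counts, where Poisson sampling gives at most 0.0382%, so a 0 in 1 library is weak evidence of absence and intervals below cover counting error only. In SK-UT-1B, the combination library 3-1 stood apart, with 338 of 12574 genes over 2-fold above every other library of the line, against 36 to 90 in the other 3. It had 371 genes over 2-fold below the others, and DMSO library 4-1 had 358. Of the smooth muscle markers, MYH11 reached at most 0.150 CPM and MYOCD at most 0.978 CPM in any library, and DES had 0 counts in SK-LMS-1 and 1.37 to 9.76 CPM in SK-UT-1B. After DMSO, 6 of the 9 tested smooth muscle markers (LMOD1, CALD1, ACTA2, TAGLN, CNN1, and SMTN) were higher in SK-LMS-1 and 1 (DES) lower, against 17.0% and 14.1% of all tested genes. The 10 smooth muscle markers summed to 740.0 to 958.6 CPM in SK-LMS-1 and 150.9 to 263.6 CPM in SK-UT-1B. The 8 epithelial markers summed to 178.4 to 277.5 CPM in SK-LMS-1 and 0.637 to 3.58 CPM in SK-UT-1B. After DMSO, 5 of 7 tested (CLDN4, KRT7, KRT8, KRT18, and KRT19) were higher in SK-LMS-1 and 0 lower, against the same shares of all tested genes. CDH1 had 0 counts in all SK-LMS-1 libraries, and ESRP1 had 0 in its DMSO libraries. The study describes SK-UT-1B, where the sum of the epithelial markers was lower, as the line with epithelial-like morphology. The part of these marker differences in the results between the lines was not tested. In bulk RNA, fewer cells of a type and less RNA per cell cannot be told apart.

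**Figure D1:**
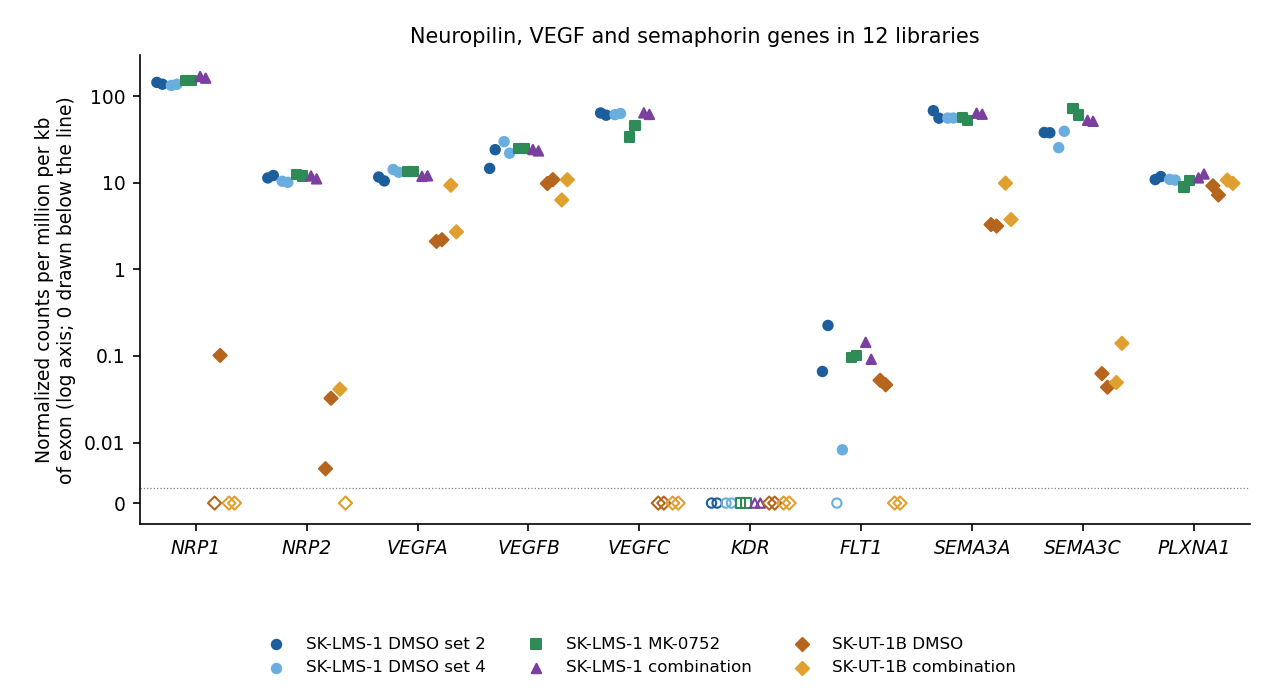
Level of each member in each of the 12 libraries, as normalized CPM per kb of exon on a log axis. Each point is 1 library, colors and shapes mark the groups, and open points below the dotted line are libraries with 0 counts. NRP1, NRP2, VEGFC, and SEMA3C lie far apart between the lines, VEGFB is closer without overlap, PLXNA1 overlaps, and KDR is at 0 throughout.

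Which members did the lines express after the DMSO vehicle alone? SK-LMS-1 expressed NRP1 above every other member, at a mean of 137.4 ± 4.56 CPM per kb (SD, n = 4), and only 181 of 19960 protein-coding genes lay higher. VEGFC followed at 61.9 ± 1.69 CPM per kb and SEMA3A at 58.7 ± 6.04 CPM per kb, and these neighbors differed by less than their spread. SEMA3C had 35.03 ± 6.49, VEGFB 22.6 ± 6.26, VEGFA 12.4 ± 1.65, PLXNA1 11.1 ± 0.473, and NRP2 10.97 ± 0.921 CPM per kb. VEGFA, PLXNA1, and NRP2 did not differ beyond their spread. The order below NRP1 depends on exon length, and in CPM the mean of VEGFA (178.4) lay above that of VEGFC (161.9). FLT1 had 0.0748 ± 0.104 CPM per kb and KDR had 0 counts.

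SK-UT-1B after DMSO had another order. VEGFB was highest at 10.3 ± 0.755 CPM per kb (SD, n = 2), followed by PLXNA1 at 8.20 ± 1.41, SEMA3A at 3.22 ± 0.0911, and VEGFA at 2.14 ± 0.0679 CPM per kb. Neighbors in this order had ranges that did not overlap, with 2 libraries each. The order depends on exon length, as mean CPM was 92.1 for PLXNA1, 30.9 for VEGFA, 29.8 for SEMA3A, and 20.3 for VEGFB. The remaining members, NRP1, NRP2, SEMA3C, and FLT1, each had at most 0.0530 CPM per kb on average, and VEGFC and KDR had 0 counts.

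After DMSO, 7 of the 9 tested members were higher in SK-LMS-1 and none was higher in SK-UT-1B. With 1 line from a metastasis and 1 from a primary tumor, tumor origin and line cannot be told apart. Called genes had an edgeR adjusted p under 0.05 and a log2FC of 1 or more in size. By the same rule 31.1% of all tested genes differed between the lines, with 17.0% higher and 14.1% lower in SK-LMS-1. The 7 were NRP1, NRP2, VEGFA, VEGFB, VEGFC, SEMA3A, and SEMA3C. The median log2FC of the tested members was 4.19, while the median of all tested genes was 0.0 and the median of their absolute values was 1.45. The CPM of the lines did not overlap for 8 of the 9 members, against 51.8% of all tested genes.

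NRP1 (chr10:33177492-33336262, minus strand, hg38) is a co-receptor for VEGFA and SEMA3A. SK-LMS-1 DMSO libraries held 1654 and 1578 CPM in set 2 and 1527 and 1573 CPM in set 4. SK-UT-1B DMSO libraries held 0 counts in 4-1 and 44 counts (1.17 CPM) in 4-2. The lines did not overlap, and the ratio of their means was 2712. The edgeR log2FC was 11.27 ± 0.889 (SE, adjusted p = 0.000165), and this value rests on library 4-2, since without it the other SK-UT-1B library has no read and the log2FC was 18.62. The coefficient of variation of NRP1 over all 8 SK-LMS-1 libraries, treated ones included, was 8.47%. Part of NRP1 exon sequence (561 bases) overlaps a long noncoding RNA on the opposite strand, as does part of NRP2 (147 bases) and VEGFA (188 bases), and since the strand setting of the counts is not given in the sources used here, values of these 3 genes are uncertain to that extent.

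NRP2 (chr2:205681990-205798133, plus strand), the co-receptor for VEGFC and several semaphorins, had 157.4, 168.0, 144.1, and 140.1 CPM after DMSO in SK-LMS-1. It had 2 and 17 counts in SK-UT-1B after DMSO, a mean of 0.260 CPM. The log2FC was 9.06 ± 0.707 (edgeR adjusted p = 1.30e-05), and 11.02 without library 4-2, which held the 17 counts. Within SK-LMS-1, NRP1 was 11.3 to 14.5 times as high as NRP2 per kb in the 8 libraries. Both neuropilins were thus high in 1 line and near the detection floor in the other.

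VEGFC (chr4:176683538-176792922, minus strand), the lymphangiogenic VEGF, had 166.7, 157.1, 159.4, and 164.4 CPM in SK-LMS-1 after DMSO and 0 counts in all 4 SK-UT-1B libraries. A count of 0 over the 4 libraries allows up to 0.0228 CPM. After DMSO, SK-LMS-1 held at least 1765-fold higher VEGFC, with the floor set at 3 counts per library (edgeR adjusted p = 1.02e-14). VEGFA (chr6:43770184-43786487, plus strand), the main angiogenic ligand, had 167.5, 151.1, 204.7, and 190.4 CPM in SK-LMS-1 and 30.3 and 31.6 CPM in SK-UT-1B after DMSO. Its log2FC was 2.52 ± 0.452 (edgeR adjusted p = 0.00255), and no library of 1 line reached the range of the other.

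VEGFB (chr11:64234584-64239264, plus strand), a ligand of FLT1, had 28.8, 47.3, 58.6, and 43.1 CPM in SK-LMS-1 and 19.2 and 21.4 CPM in SK-UT-1B after DMSO. The log2FC was 1.11 ± 0.261 (edgeR adjusted p = 0.00166), just past the fold threshold. Leaving out SK-LMS-1 DMSO library 2-3 or 4-1 or SK-UT-1B DMSO library 4-1 moved the log2FC below 1, to 0.913 at the lowest, and ended the call. VEGFB had the smallest difference of the 3 ligands and VEGFC the largest.

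SEMA3A (chr7:83955777-84492724, minus strand), which repels growing axons, had 627.0, 514.1, 515.2, and 516.2 CPM in SK-LMS-1 and 30.4 and 29.2 CPM in SK-UT-1B after DMSO. Its log2FC was 4.19 ± 0.387 (edgeR adjusted p = 2.97e-05). SEMA3C (chr7:80742538-80922359, minus strand) had 231.3, 229.9, 154.6, and 239.0 CPM in SK-LMS-1 and 11 and 10 counts, a mean of 0.323 CPM, in SK-UT-1B, with a log2FC of 9.38 ± 0.367 (edgeR adjusted p = 7.37e-12). Per kb, SEMA3C made up 31.3% to 41.3% of the sum of SEMA3A and SEMA3C in the SK-LMS-1 DMSO libraries and 1.36% to 1.87% in the SK-UT-1B DMSO libraries.

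PLXNA1 (chr3:126982693-127037389, plus strand), the signaling partner of neuropilins for class 3 semaphorins, had 121.9, 132.0, 122.6, and 120.2 CPM in SK-LMS-1 and 103.3 and 81.0 CPM in SK-UT-1B after DMSO. Its log2FC of 0.43 ± 0.152 had an edgeR adjusted p of 0.0284 but did not reach the fold threshold, and without SK-UT-1B library 4-2 it was 0.26 (adjusted p = 0.315). Among the tested members it had the smallest difference, and 19.7% of all tested genes differed less.

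The VEGF receptors were scarce. KDR (chr4:55078481-55125595, minus strand), the main signaling receptor of VEGFA, had 0 counts in all 12 libraries, which allows up to 0.0117 CPM over the 8 SK-LMS-1 libraries and 0.0228 CPM over the 4 SK-UT-1B libraries. FLT1 (chr13:28300346-28495145, minus strand), a high affinity VEGF receptor that also exists as a soluble decoy, had 29, 78, 0, and 4 counts in the SK-LMS-1 DMSO libraries and 19 and 22 counts in the SK-UT-1B DMSO libraries. The ranges overlapped, and the log2FC was -0.93 ± 1.64 (edgeR adjusted p = 0.710). The sign of this value depends on how the libraries are grouped, being 0.60 with the 4 SK-LMS-1 DMSO libraries as 1 group. Of the 10 endothelial markers, CDH5 reached at most 2.11 CPM, VWF 2.01 CPM, and TEK 0.533 CPM in any library, while TIE1 had 47.8 to 93.3 CPM and PECAM1 1.46 to 7.93 CPM in SK-LMS-1 and both had 0 counts in SK-UT-1B. After DMSO, 3 of these markers were higher (TIE1, ROBO4, and PECAM1) and 2 lower (EGFL7 and CLDN5) in SK-LMS-1, of 9 tested and against 17.0% and 14.1% of all tested genes, with EGFL7 at most 1.14 CPM in any SK-LMS-1 library and 20.1 to 24.8 CPM in SK-UT-1B (edgeR adjusted p = 0.0197). The endothelial markers summed to 57.2 to 103.6 CPM in SK-LMS-1 and 22.4 to 27.3 CPM in SK-UT-1B, and their part in the VEGF receptor levels was not tested.

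**Figure D2:**
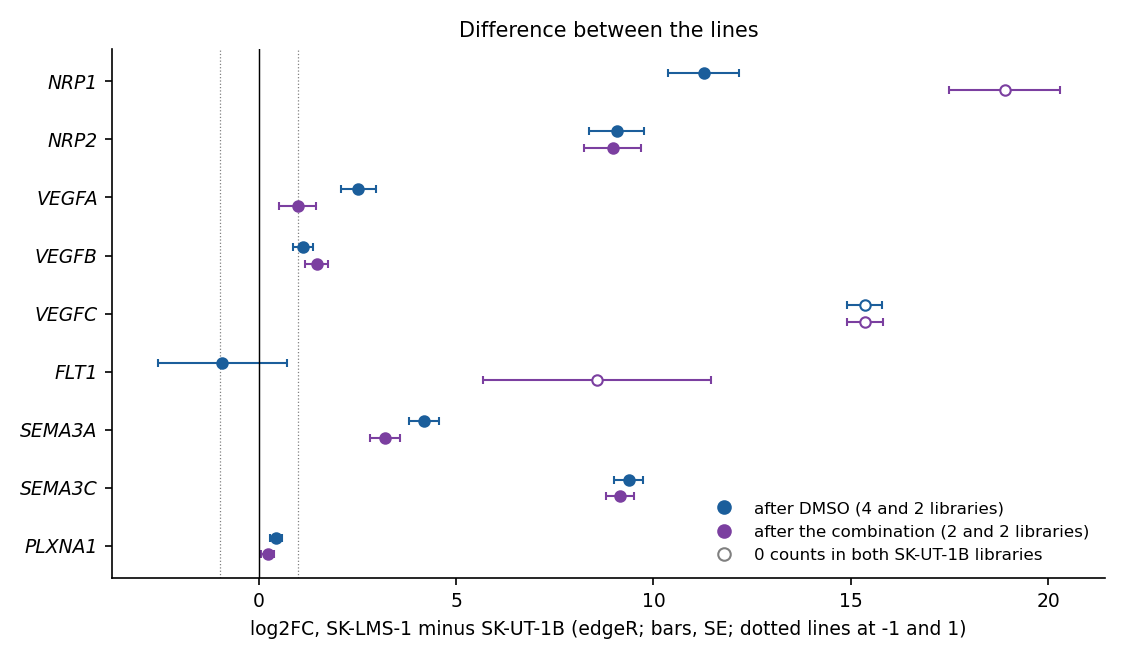
Difference of the lines in each tested member as edgeR log2FC (x axis, positive where SK-LMS-1 is higher), after DMSO and after the combination. Bars are SE, and open points are genes with 0 counts in both SK-UT-1B libraries, whose size depends on the prior count of the fit. VEGFA is the only member called after DMSO that does not reach the fold threshold after the combination.

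Did the lines still differ after the combination? Again 7 of the 9 tested members were higher in SK-LMS-1 and none lower (edgeR), while 25.4% of all tested genes were called, 15.6% higher and 9.88% lower. Of the 7, 6 had also been called after DMSO, FLT1 was added, and VEGFA was not called. The median log2FC of the members was 8.58, or 3.97 with genes at 0 counts set to their lower bound, against 0.02 over all tested genes. All 9 tested members had no overlap between the lines, against 64.6% of all tested genes.

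NRP1 had 1935 and 1852 CPM in SK-LMS-1 and 0 counts in both SK-UT-1B libraries after the combination (edgeR adjusted p = 0.000165). NRP2 had 165.8 and 153.6 CPM in SK-LMS-1 and 21 and 0 counts in SK-UT-1B, with a log2FC of 8.96 ± 0.715 (edgeR adjusted p = 2.04e-05). This size rests on library 3-1, which held all 21 counts, and without it SK-UT-1B has no NRP2 read and the fitted 15.29 depends on the prior count. VEGFC had 167.0 and 160.3 CPM in SK-LMS-1, at least 1737-fold above SK-UT-1B (edgeR adjusted p = 1.57e-14). These 3 genes kept the pattern seen after DMSO. SEMA3C had a log2FC of 9.15 ± 0.360 (edgeR adjusted p = 9.91e-12), SEMA3A of 3.20 ± 0.385 (adjusted p = 0.000226), and VEGFB of 1.47 ± 0.293 (adjusted p = 0.000494). Without library 3-1 all 3 were still called, with SEMA3A at 4.03 and VEGFB at 1.10.

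VEGFA after the combination had 170.5 and 172.8 CPM in SK-LMS-1 and 134.9 and 39.0 CPM in SK-UT-1B. The higher SK-UT-1B value was that of library 3-1. The log2FC was 0.98 ± 0.461 (edgeR adjusted p = 0.161), and without library 3-1 it was 2.11 (adjusted p = 3.97e-09) and was called, with the spread of the lone SK-UT-1B library taken from the other groups. FLT1 had 60 and 28 counts in SK-LMS-1 and 0 counts in both SK-UT-1B libraries, at least 15.7-fold higher (edgeR adjusted p = 0.0277). This call was lost when any 1 of these 4 libraries was left out, with adjusted p between 0.0547 and 0.127. PLXNA1 had a log2FC of 0.22 ± 0.172 (edgeR adjusted p = 0.351).

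Per kb, the VEGF ligands made up different mixtures in the lines. In SK-LMS-1 after DMSO, VEGFC was 58.1% to 70.9% of the sum of VEGFA, VEGFB, and VEGFC, VEGFB was 16.2% to 28.4%, and VEGFA was 11.1% to 13.5%. In SK-UT-1B after DMSO, VEGFB was 82.3% and 83.2% and VEGFA was 17.7% and 16.8%. These shares depend on merged exon lengths of 14431 bases for VEGFA, 1970 for VEGFB, and 2615 for VEGFC. Before scaling by length, the mean of VEGFA was the higher, at 30.9 against 20.3 CPM for VEGFB in SK-UT-1B after DMSO. In SK-LMS-1 after DMSO it was 178.4 against 161.9 CPM for VEGFC. The ranges of the VEGFB share did not overlap between the lines after DMSO. The sum itself was 89.9 to 104.9 CPM per kb in SK-LMS-1 and 11.9 and 13.0 CPM per kb in SK-UT-1B after DMSO.

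**Figure D3:**
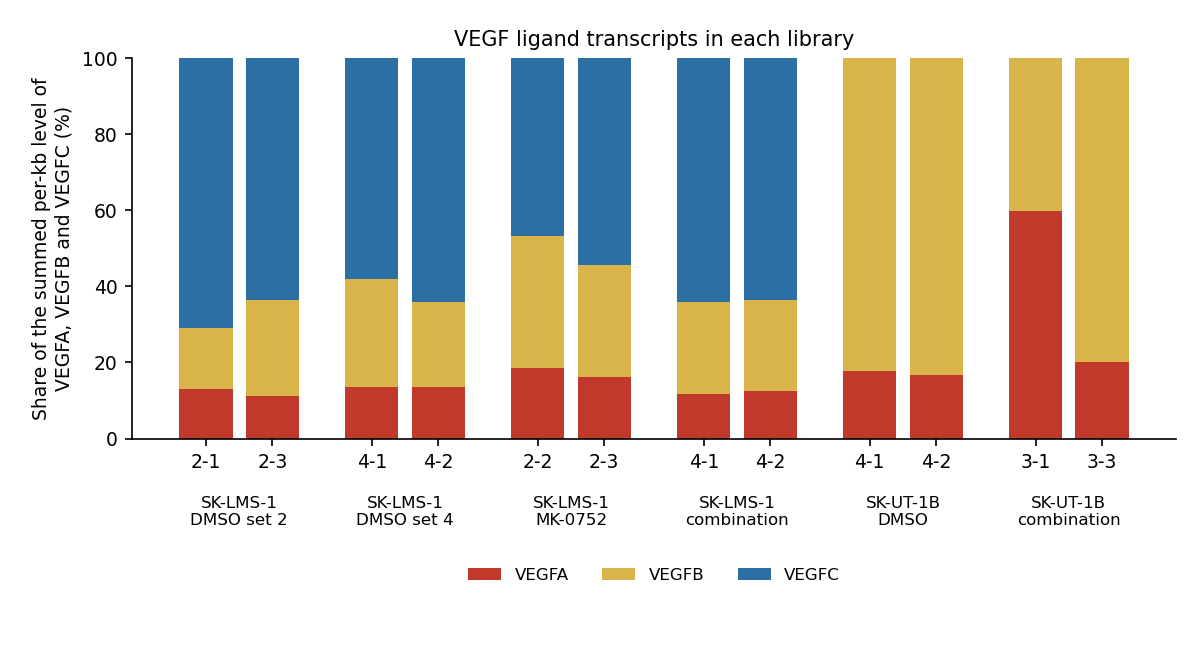
Share of VEGFA, VEGFB, and VEGFC in their summed per-kb level (y axis, percent) in each library (x axis, grouped by line and treatment). Per kb, VEGFC is the largest part in all 8 SK-LMS-1 libraries, at 46.9% to 70.9%, and is absent in SK-UT-1B. There VEGFA is 59.7% in combination library 3-1 and is 20.02% in library 3-3. The shares depend on the merged exon lengths, 14431 bases for VEGFA, 1970 for VEGFB, and 2615 for VEGFC. Before scaling by length, mean VEGFA lay above mean VEGFC in SK-LMS-1. It was 194.0 against 103.5 CPM after MK-0752 and 178.4 against 161.9 CPM after DMSO, so the order can change with the length used.

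What did the combination change in SK-UT-1B? No member was called by edgeR (0 of 9 tested, against 0.559% of all tested genes), while 4 had an unadjusted p under 0.05 (10.5% of all tested genes) and DESeq2 called 3, which were NRP1, VEGFA, and FLT1 (1.78% of all tested genes). Only 4 members (VEGFA, VEGFB, SEMA3A, and PLXNA1) averaged 100 or more counts in the SK-UT-1B libraries, so little could be read from the others, of which VEGFC had 0 counts in all 4. The CPM of the groups did not overlap for 4 of the 9, against 32.1% of all tested genes. VEGFA had 30.3 and 31.6 CPM after DMSO and 134.9 (library 3-1) and 39.0 CPM (library 3-3) after the combination, a log2FC of 1.49 ± 0.469 (edgeR adjusted p = 0.282). SEMA3A had 30.4 and 29.2 CPM after DMSO and 91.3 (3-1) and 34.7 CPM (3-3) after the combination, a log2FC of 1.08 ± 0.363 (edgeR adjusted p = 0.304). In both genes 1 of the 2 treated libraries carried most of the difference. Without library 3-1 the log2FC was 0.30 for VEGFA and 0.19 for SEMA3A, and without library 3-3 it was 2.12 and 1.61, both then called (edgeR adjusted p = 1.24e-08 and 1.71e-07, with the lone library assumed to vary like the other groups).

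VEGFB in the same line had 19.2 and 21.4 CPM after DMSO and 12.4 (3-1) and 21.3 CPM (3-3) after the combination, with overlapping groups. PLXNA1 had 103.3 and 81.0 CPM after DMSO and 120.3 and 110.3 CPM after the combination. FLT1 went from 19 and 22 counts to 0 and 0, at least 6.59-fold lower (edgeR adjusted p = 0.303). NRP1 had 0 and 44 counts after DMSO and 0 and 0 after the combination (edgeR adjusted p = 0.448). Neither is a difference beyond the spread by the main test, and DESeq2 called both (adjusted p = 0.0489 for FLT1 and 0.0312 for NRP1). Members with an unadjusted p of 0.05 or more had log2FC between -0.27 and 0.79.

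What did the drugs change in SK-LMS-1? After MK-0752 no member was called by edgeR (0 of 9, against 0.251% of all tested genes) or by DESeq2 (0, against 0.62%), while 2 had an unadjusted p under 0.05 (6.41% of all tested genes). The combination likewise gave no called member by edgeR (0 of 9, against 0.0237%) or by DESeq2 (0, against 0.171%), while 1 had an unadjusted p under 0.05 (4.33% of all tested genes). The groups did not overlap for 6 members after MK-0752, against 34.5% of all tested genes, and for 7 after the combination, against 32.4%. Between the 2 DMSO sets, with no drug, 4 members did not overlap, against 29.5%. HES1, a direct Notch target, fell after MK-0752 from 21.5 and 25.5 CPM to 3.14 and 3.80 CPM (log2FC -2.76, edgeR adjusted p = 0.0153). After the combination it went from 19.1 and 34.8 CPM to 1.35 and 3.82 CPM (log2FC -3.37, adjusted p = 0.0227). The study sequenced only treatments that had lowered HES1 by qPCR, so this fall is not an independent check on the drug. The call after MK-0752 was lost when any 1 of the 4 libraries was left out (adjusted p = 0.109 to 0.295). The call after the combination was lost without DMSO library 4-2 or either treated library, among genes that averaged 50 counts, and in a fit of only these 4 libraries (adjusted p = 0.0570 to 0.478). HES1 was the only 1 of 5 Notch target genes called in each of these comparisons.

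SEMA3C had the same sign after both exposures, as did NRP1 and NRP2. It went from 231.3 and 229.9 CPM in DMSO set 2 to 438.7 and 367.6 CPM after MK-0752, a log2FC of 0.81 ± 0.235 (edgeR adjusted p = 0.304). It went from 154.6 and 239.0 CPM in DMSO set 4 to 319.6 and 311.5 CPM after the combination, a log2FC of 0.68 ± 0.234 (edgeR adjusted p = 0.907), which was 0.40 without DMSO library 4-1 and 1.03 (adjusted p = 0.180) without DMSO library 4-2. These comparisons share no library, and all 4 treated libraries lay above all 4 DMSO libraries. Neither passed the main test. After MK-0752, the adjusted p was 0.0287 by DESeq2, 0.00470 in a fit of only these 4 libraries, and 0.0383 against all 4 DMSO libraries, all with a log2FC under 1. Among the 11 alternatives it also rose above the main 0.304, and SEMA3C stayed uncalled in all of them. The effect of MK-0752 minus that of the combination, which held a lower dose of MK-0752, was 0.13 ± 0.330 (edgeR adjusted p = 1.00), which does not show that they act alike. The share of SEMA3C in the per-kb sum of SEMA3A and SEMA3C went from 35.9% and 40.4% in DMSO set 2 to 56.2% and 53.8% with MK-0752. It was 31.3% and 41.3% in DMSO set 4 and 45.3% in both combination libraries.

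VEGFC was the other member that stood out after MK-0752. It went from 166.7 and 157.1 CPM in DMSO set 2 to 88.2 and 118.9 CPM, a log2FC of -0.64 ± 0.186 (edgeR adjusted p = 0.266). After the combination it had 167.0 and 160.3 CPM, overlapping the 159.4 and 164.4 CPM of DMSO set 4. The difference between the effects was -0.66 ± 0.261 (edgeR adjusted p = 0.911). As a share of the VEGF sum, VEGFC made up 70.9% and 63.5% in DMSO set 2 but 46.9% and 54.3% with MK-0752. With the combination it made up 64.0% and 63.5%.

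NRP1 had 1749 and 1741 CPM after MK-0752, above 1654 and 1578 CPM in its DMSO set. It had 1935 and 1852 CPM after the combination, above 1527 and 1573 CPM in its DMSO set. Neither was a difference beyond the spread, with log2FC of 0.11 ± 0.553 and 0.29 ± 0.553 (edgeR unadjusted p = 0.848 and 0.622). Among members with an unadjusted p of 0.05 or more, log2FC lay between -0.56 and 0.36 after MK-0752. After the combination the largest was that of FLT1, 4.66, from 0 and 4 counts to 60 and 28 counts, where FLT1 also differed between the DMSO sets with 29 and 78 counts in set 2 (log2FC -4.97, edgeR adjusted p = 0.794). No member was called between the DMSO sets of SK-LMS-1 by edgeR (0 of 9, against 0.0% of all tested genes) or by DESeq2 (0, against 0.156%), 1 had an unadjusted p under 0.05 (5.67% of all tested genes), and apart from FLT1 their log2FC lay between -0.23 and 0.42.

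**Figure D4:**
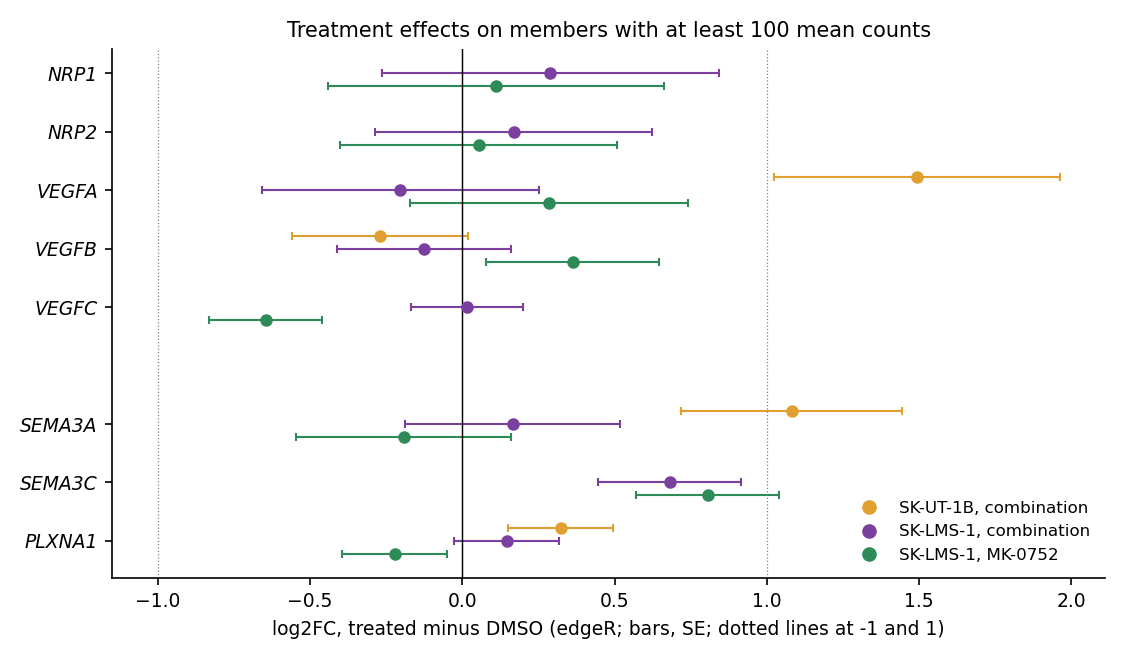
Effect of each treatment on the members as edgeR log2FC (x axis, treated minus DMSO, bars are SE), drawn for members that averaged 100 counts or more over the groups compared. SEMA3C lies at 0.81 and 0.68 in SK-LMS-1, VEGFC at -0.64 after MK-0752, and VEGFA and SEMA3A at 1.49 and 1.08 in SK-UT-1B, none with an adjusted p under 0.05.

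**Figure D5:**
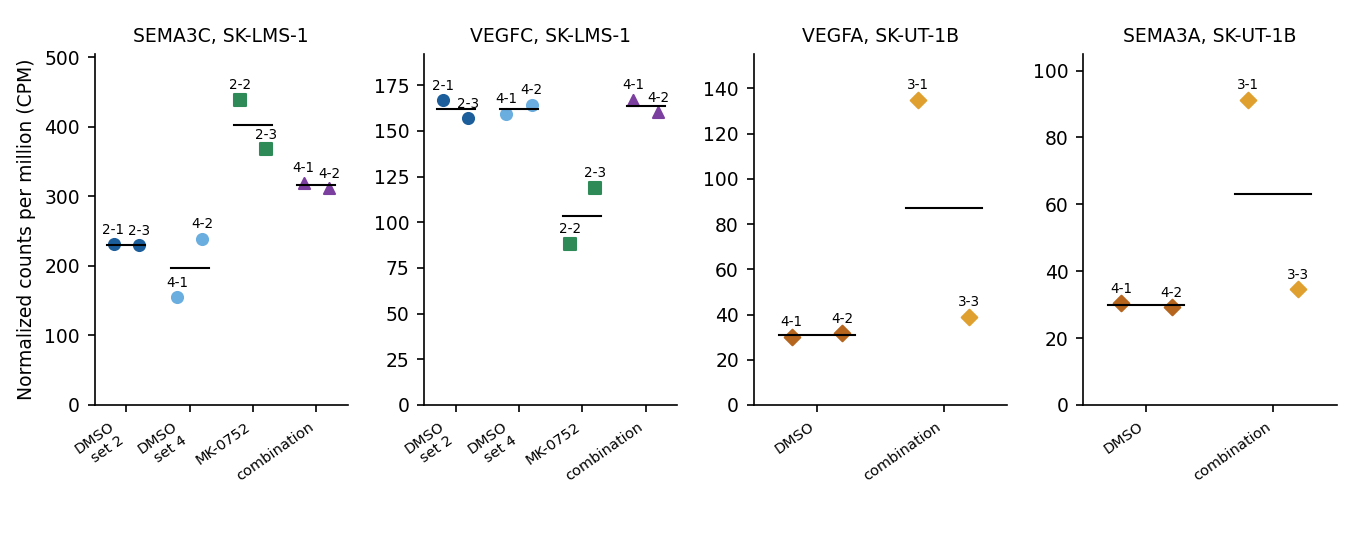
CPM of SEMA3C and VEGFC in the SK-LMS-1 libraries and of VEGFA and SEMA3A in the SK-UT-1B libraries, with 1 point per library and a line at the group mean. In SK-UT-1B, library 3-1 at 134.9 CPM of VEGFA and 91.3 CPM of SEMA3A lies far from library 3-3 at 39.0 and 34.7 CPM.

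The combination effects were also compared between the lines. By the doses the study gives, each drug of the combination was lower in SK-UT-1B. Line and dose therefore differ together here, and also where the lines were compared after the combination. No member was called (edgeR, 0 of 9, against 0.232% of all tested genes), 3 had an unadjusted p under 0.05 (7.67% of all tested genes), and DESeq2 called 1, which was FLT1 (0.701% of all tested genes). The difference, SK-UT-1B minus SK-LMS-1, was 1.69 ± 0.652 for VEGFA (edgeR adjusted p = 0.627), -11.99 for FLT1 (adjusted p = 0.377), and -7.66 for NRP1 (adjusted p = 0.648). For VEGFA the value was 0.54 without library 3-1 and 2.33 (adjusted p = 3.81e-07, called) without library 3-3. For NRP1 it was -0.29 without SK-UT-1B DMSO library 4-2 and -8.56 (adjusted p = 7.85e-07, called) without 4-1. In these fits too, 1 library stood for its group and was assumed to vary like the others. For FLT1 it was -15.86 without SK-LMS-1 DMSO library 4-2 and -7.98 with all 4 SK-LMS-1 DMSO libraries as 1 group. Both genes had 0 counts in the SK-UT-1B combination libraries, so the sizes of their fitted values depend on the prior count. Within SK-LMS-1, no member was called when the MK-0752 and combination effects were compared by edgeR (0 of 9, against 0.0379%) or by DESeq2 (0, against 0.189%), and 1 had an unadjusted p under 0.05 (5.18% of all tested genes).

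The related genes of the pathway were 16 other VEGF ligands and receptors, class 3 semaphorins, and plexins, of which 15 were tested. After DMSO, 6 were higher in SK-LMS-1 and 6 were lower, against 17.0% and 14.1% of all tested genes, and after the combination 4 were higher and 4 lower, against 15.6% and 9.88% (edgeR). Their median log2FC after DMSO was -0.08, beside 4.19 for the members. SEMA3E, the ligand of PLXND1, had 68.2 to 115.1 CPM in the SK-LMS-1 libraries and at most 1.72 CPM in SK-UT-1B (log2FC 9.74 after DMSO, edgeR adjusted p = 3.17e-09). SEMA3D had 27.8 to 96.5 CPM in SK-LMS-1 and 1.73 to 8.85 CPM in SK-UT-1B (log2FC 4.44, adjusted p = 4.90e-09). PLXND1, a receptor for SEMA3E and SEMA3C, went the other way, with 23.6 to 33.2 CPM in SK-LMS-1 and 84.5 to 144.3 CPM in SK-UT-1B (log2FC -2.21, adjusted p = 1.29e-08). SEMA3G was also lower in SK-LMS-1, with 0 counts in its 8 libraries and 0.822 to 1.26 CPM in SK-UT-1B (adjusted p = 0.0319), and SEMA3B had 6.73 to 18.3 CPM in SK-LMS-1 and 11.1 and 15.7 CPM in SK-UT-1B after DMSO (log2FC -0.08, adjusted p = 0.954).

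Of the 15 related genes, 2 rose after the combination in SK-UT-1B, against 0.559% of all tested genes called, and 5 had an unadjusted p under 0.05, against 10.5%. SEMA3D went from 1.73 and 2.65 CPM to 5.08 and 8.85 CPM (log2FC 1.66, edgeR adjusted p = 0.0275), and the call was lost in a fit of only these 4 libraries, among genes that averaged 50 counts, and without DMSO library 4-1 or combination library 3-1 (adjusted p = 0.0587 to 0.634). SEMA3E went from 0 and 0.159 CPM to 0.674 and 1.72 CPM (log2FC 3.73, adjusted p = 0.0185), which was also not called in a fit of only these 4 libraries and was 8.29 without DMSO library 4-2, the only control with SEMA3E reads. In SK-LMS-1, 0 of the 15 were called after MK-0752 (0.251% of all tested genes) or after the combination (0.0237%). An unadjusted p under 0.05 was found for 0 after MK-0752 (6.41% of all tested genes) and 1 after the combination (4.33%).

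Receptors and ligand partners named here were chosen after their values were seen. FLT4, the main receptor of VEGFC, had 0 counts in all 8 SK-LMS-1 libraries and 9.16 to 15.0 CPM in SK-UT-1B (edgeR adjusted p = 2.00e-07 after DMSO), the reverse of VEGFC itself. PGF, another ligand of FLT1, had 3.29 to 3.69 CPM in SK-UT-1B and at most 1 count in any SK-LMS-1 library. CCBE1, which assists the processing of VEGFC, had 46.5 to 86.6 CPM in SK-LMS-1 and at most 0.874 CPM in SK-UT-1B (adjusted p = 0.000216). FURIN, a protease that cleaves VEGFC and class 3 semaphorins, had 83.9 to 146.3 CPM in SK-LMS-1 and 29.9 to 38.5 CPM in SK-UT-1B (adjusted p = 1.06e-07). Of 12 genes for processing and binding, 4 (MICAL1, NRCAM, FURIN, and CCBE1) were higher in SK-LMS-1 after DMSO, against 17.0% of all tested genes. In the same comparison 2 (FARP2 and ADAMTS3) were lower, against 14.1%. ADAMTS3, a protease that processes VEGFC, had 0.0811 to 4.36 CPM in SK-LMS-1 and 13.1 to 25.2 CPM in SK-UT-1B (adjusted p = 0.000515). By edgeR, 0 of the 12 genes for processing and binding changed with the combination in SK-UT-1B, against 0.559% of all tested genes called. In SK-LMS-1, 0 were called with MK-0752 alone (0.251% of all tested genes) and 0 with the combination (0.0237%). An unadjusted p under 0.05 was found for 3 in SK-UT-1B, against 10.5% of all tested genes. In SK-LMS-1 it was found for 0 with MK-0752 alone (6.41% of all tested genes) and 1 with the combination (4.33%).

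VEGFA is a textbook target of the hypoxia inducible factors, so 15 hypoxia genes were set beside it. After DMSO, 6 were higher and 1 was lower in SK-LMS-1, against 17.0% and 14.1% of all tested genes. Over all libraries, treated ones included, EPAS1 had 234.4 to 275.4 CPM in SK-LMS-1 and 0.530 to 3.57 CPM in SK-UT-1B. HIF1A had 569.0 to 780.2 CPM in SK-LMS-1 and 173.2 to 217.9 CPM in SK-UT-1B over the same libraries. The 1 lower gene was ARNT, the partner of both, at 31.6 to 54.6 CPM in all SK-LMS-1 libraries and 83.2 to 105.2 CPM in all SK-UT-1B libraries. In SK-UT-1B, 1 of the 15, NDRG1, rose after the combination, from 8.62 and 10.9 CPM to 31.8 and 35.5 CPM (log2FC 1.78, edgeR adjusted p = 5.52e-05), while a fit of only these 4 libraries gave log2FC 1.79 and lost the call (adjusted p = 0.555). This 1 call stood against 0.559% of all tested genes, and 4 of the 15 had an unadjusted p under 0.05, against 10.5%. In SK-LMS-1, 0 of the 15 were called by edgeR after MK-0752 (0.251% of all tested genes) or after the combination (0.0237%). In each, 2 had an unadjusted p under 0.05, against 6.41% and 4.33% of all tested genes. Unlike VEGFA, NDRG1 was high in both treated libraries. The part of these genes in the VEGFA values was not tested.

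For 4 members the genes with the most similar profile were named by Pearson r of log2(CPM + 1) over the 12 libraries, among 12211 tested genes with a mean of at least 100 counts. They were ADGRF5, JAK1, and UTRN for NRP1, CAV1, ARID5B, and GALNT5 for NRP2, and FOXA2, ADAMTS1, and SLIT2 for VEGFC, all with r above 0.99. For these 3 members 1879 to 1915 genes had r of at least 0.95, and the 12 points fall into the 2 lines. VEGFA was unlike them, with 77 such genes, led by SGPL1, STC2, and G0S2 (r = 0.993, 0.990, and 0.985).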

How the data were processed

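The 12 libraries came from 2 uLMS lines and formed 6 groups of 2, defined by line and treatment, with the SK-LMS-1 controls split by the leading number of their titles. SK-UT-1B had controls numbered 4 and combination libraries numbered 3. The authors prepared stranded, ribosome-depleted libraries, sequenced single-end reads, trimmed them with Trim Galore 0.3.7, aligned them to hg38 with STAR 2.7.9a, and removed ribosomal reads with SortMeRNA. They deposited STAR's gene counts as raw counts, with no scaling. The annotation, strand setting, and any duplicate removal are not given in the sources used here. SK-LMS-1 columns carry no line name. They were matched to samples by the rest of the title, since every SK-UT-1B sample has its own column with the line name.

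The main test was the quasi-likelihood test of edgeR 4.0.16, run in R 4.3.3 on TMM-scaled counts of the 21114 genes kept by filterByExpr, with the robust option and all 6 groups in 1 model. A gene was called when its p, adjusted by Benjamini-Hochberg across every tested gene, was under 0.05 and its log2FC was 1 or more in size, which are the study's thresholds. Controls were DMSO set 2 for MK-0752 and DMSO set 4 for the combination. SE was the absolute log2FC divided by the square root of F. Lengths came from GENCODE v44, which held 60507 of the gene identifiers. Floors were 3 counts. Depth ranged from 25250057 to 40709885 counts.

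The members and lists were chosen with earlier results of these data known. Genes named were the members, related genes called in a treatment comparison or among the 3 most abundant called in a line comparison, and the 3 genes most like NRP1, NRP2, VEGFA, and VEGFC. Other genes named from the lists were chosen after their values were seen. Alternatives were DESeq2 1.42.0, its size factors in edgeR, genes with any count, genes that averaged 50 counts, only the libraries compared, all 4 SK-LMS-1 DMSO libraries as 1 group, a replicate block, and each library left out. The edgeR and DESeq2 scripts were tested on simulated data with 200 changed genes.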

Additional observations from a re-analysis of the deposited data

Results flagged for a closer look

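SEMA3A in DMSO library 2-1 of SK-LMS-1 had 627.0 CPM, far above the other 3 DMSO libraries of the line, which lay between 514.1 and 516.2 CPM. SEMA3C in DMSO library 4-1 of SK-LMS-1 had 154.6 CPM, far below the other 3, which lay between 229.9 and 239.0 CPM. Both gaps exceeded the critical share of the range in Dixon's test for 4 libraries, which was run on 10 genes and flags about 1 in 20 groups by chance. Library 4-1 is a control of the combination, and without it the log2FC of SEMA3C after the combination was 0.40 instead of 0.68. Without the other control, library 4-2, it was 1.03 (edgeR adjusted p = 0.180).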

How the results depend on the processing

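Both counts of 7 members called between the lines lay between 6 and 7 in the alternatives. For SK-UT-1B after the combination, edgeR called 0 members (0.559% of all tested genes) and DESeq2 called 3 (NRP1, VEGFA, FLT1, against 1.78%). With no filter beyond 1 count, 1 was called (SEMA3A). Without combination library 3-3 the log2FC was 2.12 for VEGFA and 1.61 for SEMA3A. Without library 3-1 it was 0.30 and 0.19. For the difference of the combination effects between the lines, DESeq2 called 1 (FLT1, against 0.701% of all tested genes). That difference was 2.33 for VEGFA without library 3-3 and 0.54 without library 3-1. Shares of all tested genes called in the remaining alternatives are not given here, so member counts in those fits have no background. The cause of these changes was not tested. The count of called members stayed at 0 in the alternatives of the other 4 comparisons. Of 357 alternatives for 30 log2FC values of members, 335 kept direction and side of the threshold, 9 lost the call, 11 gained one, and 2 turned. FLT1 between the lines after DMSO turned from -0.93 to 0.60 with all 4 SK-LMS-1 DMSO libraries as 1 group, and NRP1 in SK-UT-1B after the combination went from -7.37 to between -8.31 and 0 with a library left out, because only DMSO library 4-2 held reads. Of 321 alternatives for the other named genes, 20 lost the call and none turned. Low counts limit FLT1, and NRP1, NRP2, and SEMA3C in SK-UT-1B.

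The labels do not say that a shared number marks a pair, and the correlation of deviations was -0.01 between SK-LMS-1 DMSO set 4 and the combination, the only groups checked. With a replicate block, 6 members were called between the lines after DMSO (VEGFB lost, log2FC 0.98), 6 after the combination (FLT1 lost), and 0 in the other 6 comparisons. The share of all tested genes called with this block is not given here.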
